A study of Mus musculus with 4 samples.

Results

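Cholesterol and fatty acid synthesis was examined as a set of 30 genes, listed by symbol and found in the count table through their NCBI gene IDs. All 30 were present among the 27179 genes of the table, and all 30 passed the filter on low counts that left 13580 genes for testing. The set was read in 5 groups by role, namely 7 mevalonate steps, 11 squalene and sterol ring steps, 5 genes of sterol sensing, 2 of sterol transport and 5 of fatty acid synthesis. Across these groups, 6 genes code for enzymes that consume molecular oxygen (Sqle, Cyp51, Msmo1, Sc5d, Scd1 and Scd2), and they were set beside the other 24.

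MC38 is a colon carcinoma line of mouse origin, recorded here as wild type in every sample. The 4 cultures were sequenced as poly-A RNA, 1 library each. Untreated control cells were kept in normoxia at 20% oxygen or in hypoxia at 1.5% oxygen, and a second pair of cultures at the same oxygen levels received IFN-γ at 5 ng/mL, for 24 h in most of the study's experiments. The time in hypoxia was not given in the sources used here, and no condition had a replicate culture.

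Sterols and fatty acids are both built from acetyl-CoA. The mevalonate steps make isoprenoid units, squalene is assembled from these and closed into the first sterol ring, and a series of demethylations, reductions and isomerisations then gives cholesterol. Several of these steps, like the desaturation of stearate to oleate, consume molecular oxygen, so both pathways depend on oxygen as well as on carbon. Transcription of most of the enzymes is driven by the SREBP factors (Srebf1, Srebf2), which the escort protein Scap carries out of the endoplasmic reticulum when sterols are low, and which Insig1 and Insig2 hold back when sterols are high.

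Promoter windows from RefSeq (GRCm38.p6, 250 bases before to 50 bases after a start site) were found for 24 of the 30 members, in 32 windows. The windows shown are 2 of 3 for Insig2 and 1 of 2 for Pmvk, the members with a window whose hypoxia rise past the test was largest, beside Insig1, the paralog of Insig2, and Hmgcs1, which carries a sterol regulatory element. Capitals mark 4 motifs searched on both strands: the sterol regulatory element TCACNCCA, the NF-Y box CCAAT, the hypoxia response element core ACGTG, and the variant of that core that starts with G, GCGTG. A match on the other strand appears as the reverse complement of these letters. The palindrome CACGTG counts as ACGTG on each strand.
Insig2, chr1:121327975-121328274, minus strand: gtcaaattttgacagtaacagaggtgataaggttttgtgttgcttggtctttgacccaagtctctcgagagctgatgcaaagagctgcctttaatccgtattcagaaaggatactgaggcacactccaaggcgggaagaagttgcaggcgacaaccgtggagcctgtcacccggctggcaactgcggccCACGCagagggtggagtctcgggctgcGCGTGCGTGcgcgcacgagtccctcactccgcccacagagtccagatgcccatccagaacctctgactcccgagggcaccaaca
Insig2, upstream start, chr1:121332540-121332839, minus strand: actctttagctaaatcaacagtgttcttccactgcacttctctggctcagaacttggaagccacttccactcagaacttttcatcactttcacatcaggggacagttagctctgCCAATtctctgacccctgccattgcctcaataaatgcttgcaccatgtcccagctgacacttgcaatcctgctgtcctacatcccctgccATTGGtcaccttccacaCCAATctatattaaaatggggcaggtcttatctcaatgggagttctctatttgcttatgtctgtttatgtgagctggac
Insig1, chr5:28071162-28071461, plus strand: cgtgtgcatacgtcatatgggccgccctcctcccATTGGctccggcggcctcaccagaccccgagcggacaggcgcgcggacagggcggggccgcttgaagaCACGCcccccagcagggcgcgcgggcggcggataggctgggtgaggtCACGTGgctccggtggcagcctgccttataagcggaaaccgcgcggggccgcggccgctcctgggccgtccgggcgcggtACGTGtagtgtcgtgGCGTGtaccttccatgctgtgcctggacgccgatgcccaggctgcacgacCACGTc
Pmvk, chr3:89454291-89454590, plus strand: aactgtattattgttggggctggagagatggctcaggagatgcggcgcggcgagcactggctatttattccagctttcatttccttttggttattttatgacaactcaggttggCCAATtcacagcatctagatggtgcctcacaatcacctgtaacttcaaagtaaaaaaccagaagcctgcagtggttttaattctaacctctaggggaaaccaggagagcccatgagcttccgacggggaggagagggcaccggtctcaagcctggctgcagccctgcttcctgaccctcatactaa
Hmgcs1, chr13:119690101-119690400, plus strand: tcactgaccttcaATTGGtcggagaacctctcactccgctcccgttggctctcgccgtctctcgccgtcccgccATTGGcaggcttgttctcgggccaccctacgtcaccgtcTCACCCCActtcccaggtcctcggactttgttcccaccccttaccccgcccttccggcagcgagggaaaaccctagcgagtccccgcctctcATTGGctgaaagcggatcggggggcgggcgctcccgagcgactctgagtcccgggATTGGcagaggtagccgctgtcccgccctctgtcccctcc

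Insig2 had 3 GCGTG matches in the first window and 3 NF-Y boxes in the upstream window. Its window that is not shown had 1 GCGTG match, and that of Pmvk had no match to the 4 motifs. Insig1 had 4 ACGTG and 2 GCGTG matches with 1 NF-Y box, Pmvk had 1 NF-Y box in the window shown, and Hmgcs1 had 4 NF-Y boxes around 1 sterol regulatory element at position -137 from the start site. The sterol regulatory element letters were found in 3 of the 24 members with a window (Hmgcs1, Msmo1 and Srebf2), against 4.36% of all 32851 mouse windows. The NF-Y box was found in 20 of the 24 members, against 37.4% of windows. ACGTG was found in 7 of the 24, against 19.6% of windows, and GCGTG in 15, against 32.4%. A further motif, the interferon-linked GAS letters TTCNNNGAA, was found in 1 member (Ebp), against 8.30% of windows. The shares over all mouse windows are per window, while the member counts are per gene. Counted per window, 3 of the 32 member windows had the sterol regulatory element and 21 the NF-Y box. ACGTG was in 8 of the 32, GCGTG in 17 and the GAS letters in 1. Members with several windows had more chances of a match, so these shares are descriptions of the letters only.

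Each library held between 34302971 and 34537939 counts, so that the deepest was 1.007 times the shallowest and raw counts can be read side by side. At this depth 3 counts, the limit that a count of 0 allows, correspond to about 0.0875 CPM (counts scaled to library size). The labels were met by the cells' responses: 7 genes known to rise in hypoxia were 2.22- to 4.11-fold higher in hypoxia without IFN-γ and 2.27- to 4.74-fold higher with it, and 5 IFN-γ response genes were 3.41- to 39.1-fold higher with IFN-γ in normoxia and 3.08- to 34.9-fold higher in hypoxia. The label of colon cancer cells was not borne out by the epithelial markers, since 2 of 7 (Cldn4, Cdx1) had 0 counts in every library, 4 were at or under 3 counts throughout, and the highest value was 90 counts of Krt8. The 7 summed to 63 to 101 counts, beside 3 to 13 for 4 leukocyte markers, 26 to 50 for 2 endothelial markers and 67 to 100 for 2 markers of smooth muscle and fibroblasts. Because RNA was taken in bulk, a change in the number of cells that express a gene cannot be told apart from a change in RNA per cell.

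Nearly all of the pathway was counted in depth in these cells. Of the 30 members, 28 had 1000 counts or more in each library, as did 6068 of the 13580 genes tested. Values of the 28 ran from 1411 counts (Insig2) to 51021 (Scd2). Levels between genes were compared per kilobase of annotated exon after scaling to library size (RPKM), as the mean of the 4 libraries. Scd2, a stearoyl-CoA desaturase, was highest at 244 RPKM. It was followed by Cyp51, the lanosterol demethylase, at 137, Acly, the enzyme that releases acetyl-CoA from citrate, at 107, Scd1, the second desaturase, at 95.3, and Fdps, which makes farnesyl diphosphate, at 83.7. Of the 4 highest, 3 are enzymes that use oxygen. At the other end were Acaca (acetyl-CoA carboxylase) at 7.27 RPKM, Tm7sf2, one of the sterol C14 reductases, at 0.34, and Abca1, the cholesterol exporter, at 0.03. Abca1 had 8 to 20 counts and Tm7sf2 45 to 57. Together the members took 0.709% of all counts in control normoxia, 0.737% in control hypoxia, 0.676% with IFN-γ in normoxia and 0.710% with IFN-γ in hypoxia. Without Scd2 the same sums were 0.578%, 0.589%, 0.561% and 0.569%.

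**Figure D1:**
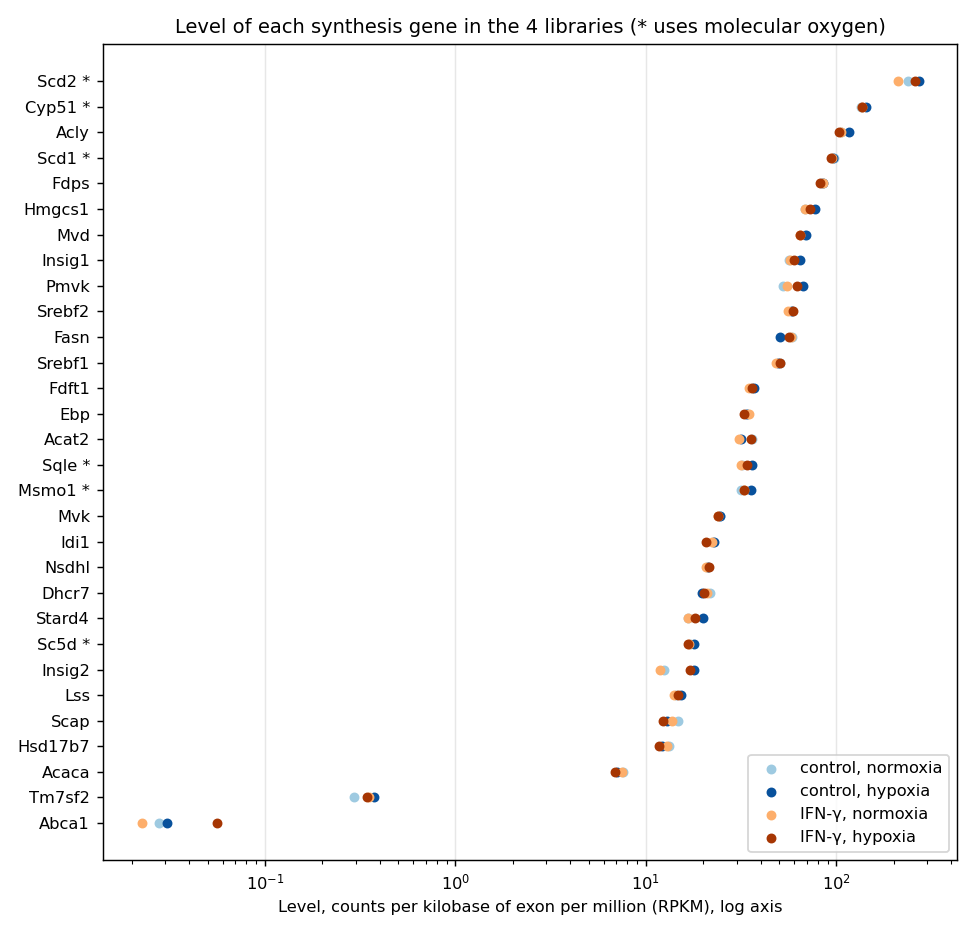
Level of each of the 30 members in the 4 libraries, in RPKM on a log axis, ordered by the mean; each point is 1 library and an asterisk marks an enzyme that uses oxygen. Scd2, Cyp51, Acly and Scd1 lead at 244, 137, 107 and 95.3 RPKM, while Tm7sf2 and Abca1 stand far below the rest.

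The first question was how hypoxia changed these genes, averaged over both IFN-γ states. Transcripts of Insig2, Pmvk, Scd2 and Stard4 rose and those of Scap fell, and the other 25 members did not pass the test. These are 4 of 30 raised (13.3%), against 8.21% of all 13580 genes tested, and 1 of 30 lowered (3.33%), against 6.83%. The median log2 change was 0.03 over the members and 0.00 over all genes, and 20 of the 30 members had a value above 0, against 6959 of all 13580 genes. An unadjusted p under 0.05 was reached by 9 members (30%), against 26.5% of all genes. Significance was taken from an additive model of oxygen and IFN-γ fitted by edgeR (quasi-likelihood), with Benjamini-Hochberg adjustment over all genes. With 1 library per condition its spread is the departure from additivity at 1 residual degree of freedom, pooled over genes, and it holds no measure of the variation between replicate cultures.

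Between single pairs of libraries the 95% interval covers counting error only and makes no test. On that measure 12 members were higher in hypoxia and 6 lower without IFN-γ, against 23.5% and 21.8% of all genes tested. With IFN-γ 13 were higher and 7 lower, against 22.0% and 23.8%. The members' high counts give narrow intervals, and among the 6068 genes whose count was 1000 or more in each library the corresponding shares were 27.9% and 33.1% without IFN-γ and 24.7% and 37.5% with it. The sign of the hypoxia change was the same in both pairs for 21 of the 30 members. The share over all genes tested was not computed, so this count has nothing to be set against.

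**Figure D2:**
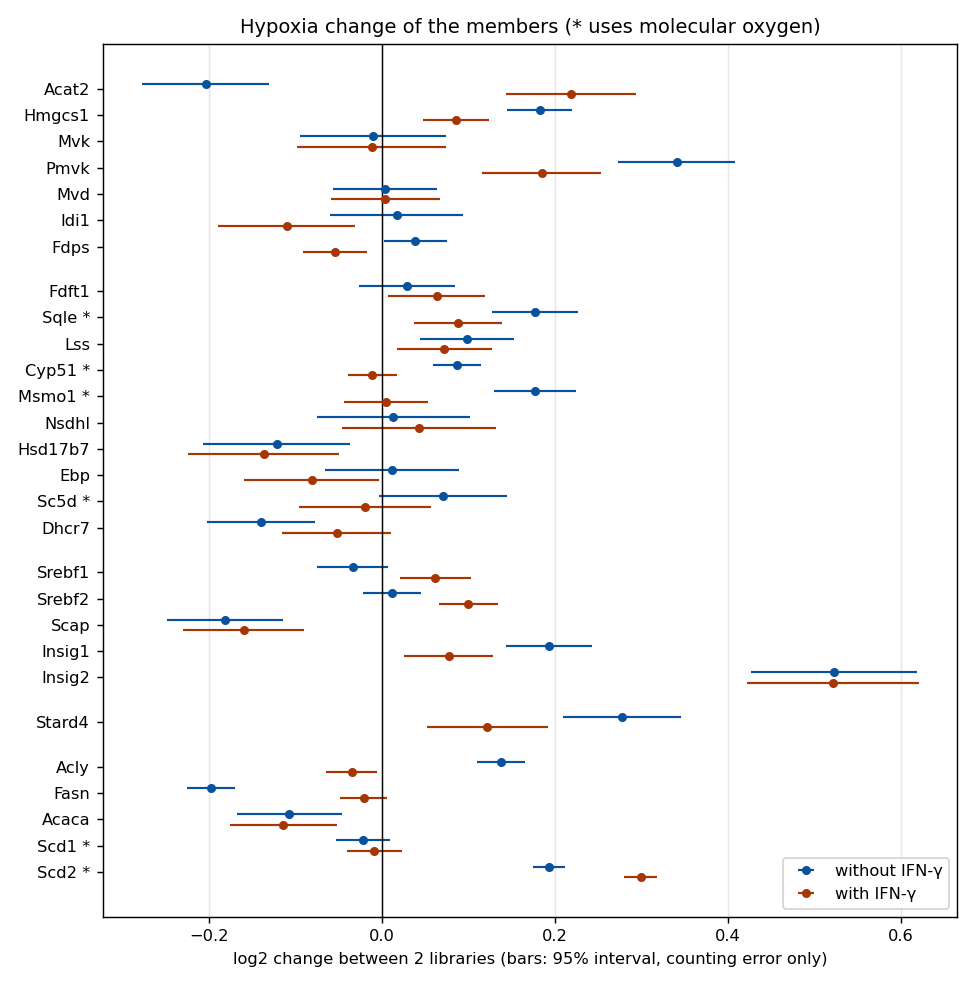
log2 change from normoxia to hypoxia of 28 members, without IFN-γ (blue) and with it (brown), grouped by role from the mevalonate steps at the top to fatty acid synthesis at the bottom; points are ratios of 2 libraries, bars are 95% intervals from counting error alone, and an asterisk marks an enzyme that uses oxygen. Insig2 stands apart at 0.52 in both pairs, Acat2 lies on opposite sides of 0, and Abca1 and Tm7sf2 are left out for their low counts.

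Among the 7 mevalonate steps, 1 rose in hypoxia and none fell, against 8.21% and 6.83% of all genes tested. Their median log2 change was 0.00. Pmvk (phosphomevalonate kinase, gene ID 68603, chr3:89454541-89469013) had 3127 counts in control normoxia, 3952 in control hypoxia, 3227 with IFN-γ in normoxia and 3663 with IFN-γ in hypoxia. Both hypoxic libraries lay above both normoxic ones. The log2 change was 0.34 without IFN-γ (95% counting interval 0.27 to 0.41) and 0.18 with it (0.12 to 0.25), and the additive estimate was 0.26 ± 0.06 (SE) with an edgeR adjusted p of 0.000536. Hmgcs1, the cytosolic HMG-CoA synthase at the head of the pathway, had 10867, 12306, 10741 and 11387 counts in the same order, an estimate of 0.13 ± 0.05 (SE) that missed the threshold at an adjusted p of 0.0638. Mvk and Mvd, the kinase and the decarboxylase on either side of Pmvk, had estimates of -0.01 (adjusted p = 0.944) and 0.00 (adjusted p = 0.983). Idi1, the isomerase that follows, had an estimate of -0.05 (adjusted p = 0.717). Its log2 change was 0.02 without IFN-γ (95% counting interval -0.06 to 0.09) and -0.11 with it (-0.19 to -0.03).

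Like Idi1, Acat2 and Fdps gave hypoxia values of opposite sign with and without IFN-γ, and for these their counting intervals left out 0 in both pairs. Acat2, the cytosolic acetoacetyl-CoA thiolase, had 3188, 2762, 2675 and 3109 counts, which is a log2 change of -0.20 without IFN-γ (95% counting interval -0.28 to -0.13) and 0.22 with it (0.14 to 0.29). Fdps had 12103, 12406, 12234 and 11768 counts, or 0.04 and -0.05. Acat2 and Fdps each share sequence with another annotated gene. Of the 31-base words in Acat2 exons 43.7% also occur in another gene, chiefly Acat3, so reads could have been split between them. Of the 31-base words in Fdps 27.9% do, chiefly in Gm43738, an annotation that overlaps 26.7% of the Fdps exons on the same strand. How reads in that overlap were counted was not given. Acat3 itself had 22 to 38 counts, and the sum of Acat2 and Acat3 changed by -0.21 and 0.22.

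None of the 11 squalene and sterol ring steps passed the test for hypoxia, against 8.21% of all genes raised and 6.83% lowered. Their median log2 change was 0.04. The largest estimate among those with over 1000 counts was that of Sqle (squalene epoxidase, gene ID 20775), which had 6139, 6926, 6039 and 6413 counts. Its hypoxic libraries lay above its normoxic ones, by 0.18 without IFN-γ and 0.09 with it, and the additive estimate of 0.13 ± 0.06 (SE) missed the threshold (adjusted p = 0.0986). Lss, which closes the ring on the product of Sqle, had an estimate of 0.08 (adjusted p = 0.369), and Fdft1, the squalene synthase ahead of it, one of 0.05 (adjusted p = 0.679). Ctsb, on the opposite strand, overlaps 18.3% of the Fdft1 exons, and whether counting used strand was not stated.

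Downstream of the ring closure the values spread to both sides of 0. Msmo1, the C4 methyl oxidase, had 6745, 7611, 6879 and 6894 counts, so that the log2 change was 0.18 without IFN-γ and 0.00 with it. Cyp51 had 20595, 21825, 20682 and 20500 counts, or 0.09 and -0.01. Sc5d, the C5 desaturase, had 2880, 3018, 2801 and 2759 counts, or 0.07 and -0.02. For all 3 the highest library was control hypoxia and with IFN-γ the hypoxic library differed from its normoxic partner by less than counting error. The remaining steps use no molecular oxygen. Hsd17b7, the 3-keto reductase, was the lowest of the group at an estimate of -0.13 (adjusted p = 0.215), and Dhcr7, which makes cholesterol from 7-dehydrocholesterol, was at -0.10 (adjusted p = 0.317). Nsdhl and Ebp had estimates of 0.03 and -0.04, and Tm7sf2, with at most 57 counts, one of 0.16 ± 0.31 (SE).

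In sterol sensing 1 of 5 genes rose, 1 fell and 3 did not pass, against 8.21% of all genes raised and 6.83% lowered. Insig2 (gene ID 72999, chr1:121304353-121332589) had the largest called change of the whole set. It had 1489 counts in control normoxia, 2135 in control hypoxia, 1411 with IFN-γ in normoxia and 2023 with IFN-γ in hypoxia. The log2 change was 0.52 without IFN-γ (95% counting interval 0.43 to 0.62) and 0.52 with it (0.42 to 0.62), and the additive estimate was 0.52 ± 0.07 (SE) with an edgeR adjusted p of 6.52e-11. It was the only member called under each of the 6 alternative fits, with adjusted p-values from 4.86e-06 to 0.0309.

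Insig1 (gene ID 231070, chr5:28071363-28078662), itself a target of the SREBP factors, had 6013, 6861, 6045 and 6369 counts. Its estimate of 0.13 ± 0.06 (SE) missed the threshold (adjusted p = 0.0912). Per kilobase of exon, Insig2 therefore moved from 0.221 of the Insig1 level in control normoxia to 0.277 in control hypoxia, and in the IFN-γ pair from 0.208 to 0.283. Scap (gene ID 235623, chr9:110333288-110384950) had 3784, 3330, 3514 and 3142 counts, with both hypoxic libraries below both normoxic ones. It fell by 0.18 without IFN-γ and by 0.16 with it on the log2 scale, and its additive estimate of -0.17 ± 0.06 (SE) had an adjusted p of 0.0442, close to the threshold. An annotated transcript on the opposite strand, 5830462I19Rik, overlaps 13.2% of the Scap exons, and whether counting used strand was not stated. The transcription factors were nearly level: Srebf1 had an estimate of 0.01 (adjusted p = 0.911) and Srebf2 one of 0.06 (adjusted p = 0.536). Their ratio per kilobase stayed between 1.15 and 1.18 in the 4 libraries.

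Of the 2 transport genes, Stard4, a cytosolic sterol carrier, rose. It had 3202, 3874, 3201 and 3479 counts, or log2 changes of 0.28 without IFN-γ (95% counting interval 0.21 to 0.35) and 0.12 with it (0.05 to 0.19). Both hypoxic libraries were higher, and the additive estimate was 0.20 ± 0.06 (SE) with an adjusted p of 0.0141. Abca1 had 10, 11, 8 and 20 counts, too few to place its change, since the counting interval with IFN-γ ran from 0.08 to 2.72 and the additive estimate was 0.76 ± 0.61 (SE).

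In fatty acid synthesis 1 of 5 genes rose and none fell, against 8.21% and 6.83% of all genes tested. Scd2 (gene ID 20250, chr19:44293674-44306864) had 44720 counts in control normoxia, 51021 in control hypoxia, 39588 with IFN-γ in normoxia and 48647 with IFN-γ in hypoxia. Both hypoxic libraries were above both normoxic ones, by 0.19 without IFN-γ (95% counting interval 0.17 to 0.21) and 0.30 with it (0.28 to 0.32). The additive estimate was 0.25 ± 0.05 (SE) with an adjusted p of 2.77e-06. Scd1, its neighbour on the same chromosome, had 16450, 16173, 15859 and 15745 counts and an estimate of -0.02 (adjusted p = 0.890). The Scd2 level was 2.43 times that of Scd1 in control normoxia and 2.82 times in control hypoxia, and 2.23 and 2.77 times with IFN-γ. Of the 31-base words of these paralogs, 8.14% of Scd1 and 6.81% of Scd2 occur in another gene, chiefly in each other.

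Fasn, Acaca and Acly did not pass the test. Fasn, the fatty acid synthase, had 22106, 19232, 21567 and 21227 counts, or -0.20 without IFN-γ and -0.02 with it (additive estimate -0.11 ± 0.05 SE, adjusted p = 0.116). Acaca had 4500, 4170, 4382 and 4044 counts, -0.11 in both pairs (additive estimate -0.11, adjusted p = 0.227), and 33.4% of its 31-base words occur in another gene, chiefly Gm5182. Acly had 19268, 21155, 19116 and 18635 counts, which is a change of 0.14 without IFN-γ and -0.04 with it (additive estimate 0.05, adjusted p = 0.563).

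**Figure D3:**
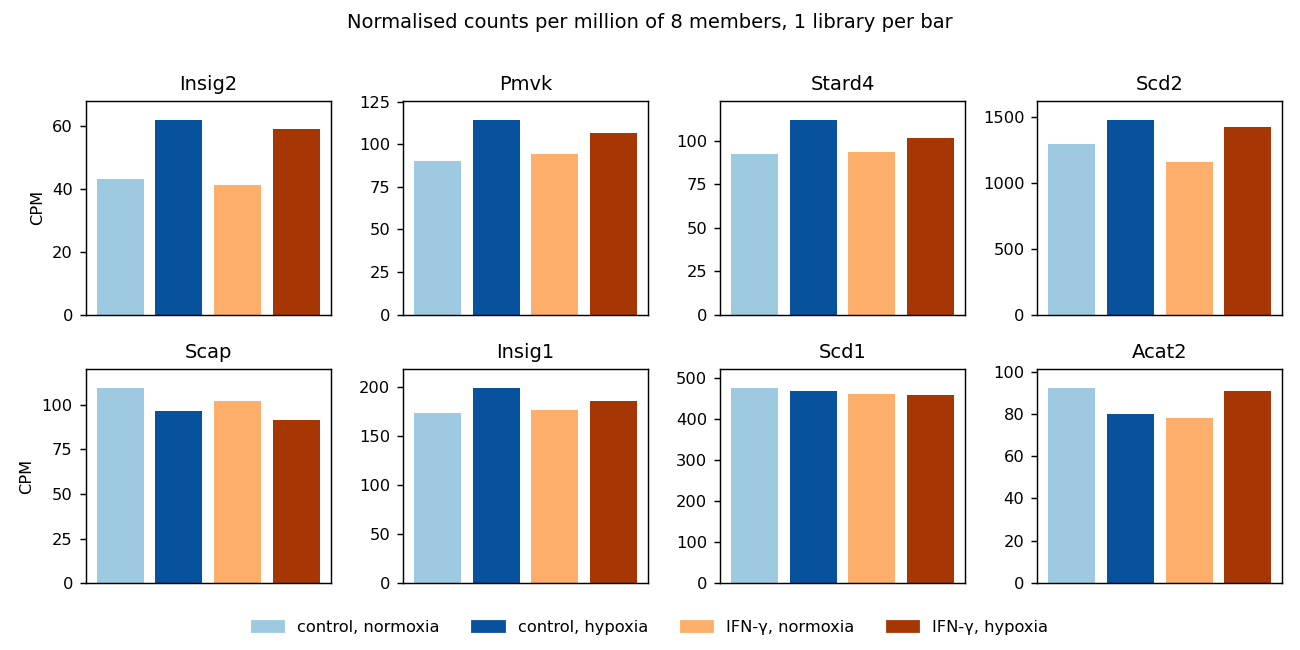
Normalised CPM of 8 members in control normoxia, control hypoxia, IFN-γ normoxia and IFN-γ hypoxia, from left to right; each bar is 1 library, each panel has its own axis from 0, and there are no replicates to give an error. Insig2, Pmvk, Stard4 and Scd2 are higher and Scap is lower in both hypoxic libraries, Scd1 is nearly level, and Acat2 turns with IFN-γ.

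The limits of these 5 calls differ. In 1 of the 6 alternative fits, which had oxygen as its only term, the calls for Pmvk (adjusted p = 0.138) and Scd2 (adjusted p = 0.149) were lost. Stard4 was called in 3 of the 6 alternatives and Scap in 2, with adjusted p-values of up to 0.231 and 0.313.

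Oxygen-requiring steps were then set beside the other members. Of the 6, 1 rose in hypoxia (Scd2, 16.7%) and none fell. Of the other 24, 3 rose (12.5%) and 1 fell (4.17%). Over all genes tested 8.21% rose and 6.83% fell, and 1 gene among 6 is too few to set against these shares. The median log2 change was 0.06 for the 6 and 0.02 for the 24, against 0.00 for all genes tested. This small gap came from the pair without IFN-γ, where the medians were 0.13 and 0.01. With IFN-γ they were 0.00 and 0.02, in the opposite order. By counting error 4 of the 6 were higher in hypoxia without IFN-γ and 2 with it (Sqle and Scd2 in the latter), and none was lower in either pair. Of the other 24, 8 were higher and 6 lower without IFN-γ, and 11 were higher and 7 lower with it. Among the genes whose count was 1000 or more in each library, 27.9% were higher and 33.1% lower without IFN-γ. With it these shares were 24.7% and 37.5%. The summed share of counts of the 6 went from 0.284% in control normoxia to 0.309% in control hypoxia, and in the IFN-γ pair from 0.266% to 0.293%. Without Scd2 it went from 0.154% to 0.161% and from 0.151% to 0.152%. The 24 other members went from 0.424% to 0.428% and from 0.410% to 0.417%. Genes are not replicates, and the difference between the 2 groups of genes was not tested.

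The second comparison was of IFN-γ with control, averaged over both oxygen levels. None of the 30 members rose and none fell by edgeR's quasi-likelihood test, against 4.76% of all genes tested that rose and 1.1% that fell. At an unadjusted p under 0.05 the count was 1 (Scd2), or 3.33% of members against 14.0% of all genes, and DESeq2 called 0 members, with 0 at an unadjusted p under 0.05. The estimates were small, and 26 of the 30 lay below 0, with a median of -0.04 over the members and -0.01 over all genes. For all genes 6230 of 13580 estimates were above 0. Scd2 had the lowest at -0.11 ± 0.05 (SE), an adjusted p of 0.188, and Mvd was next at -0.10 (adjusted p = 0.514). Apart from Abca1 and Tm7sf2, the SE of the members' estimates ran from 0.05 to 0.07 on the log2 scale. Scd2 at -0.11 ± 0.05 (SE) thus went uncalled although its unadjusted edgeR p was 0.017. The absence of calls does not exclude changes of that size.

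By counting error alone 0 members were higher and 8 lower with IFN-γ in normoxia, against 18.1% and 16.7% of all genes tested. In hypoxia 2 were higher and 14 lower, against 17.0% and 20.7%. Among the genes that reached 1000 counts in each library these shares were 23.5% and 21.0% in normoxia and 20.9% and 29.8% in hypoxia. The 2 higher were Acat2 at 0.18 and Fasn at 0.16. All 6 oxygen-requiring members had values below 0 with IFN-γ in hypoxia, 5 of them outside counting error. Of the other 24, 7 had values above 0 and 9 were lower by counting error. Over all genes tested 6183 of 13580 values were above 0. The median was -0.09 for the 6, -0.05 for the other 24 and -0.02 for all genes tested. In normoxia the medians of the 6 and the 24 were -0.02 and -0.02. The lowest values in hypoxia were those of Acly (-0.17), Stard4 (-0.14), Idi1 (-0.13) and Msmo1 (-0.13). The library of control hypoxia enters both this comparison and that of hypoxia without IFN-γ, so a high value there moves both.

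**Figure D4:**
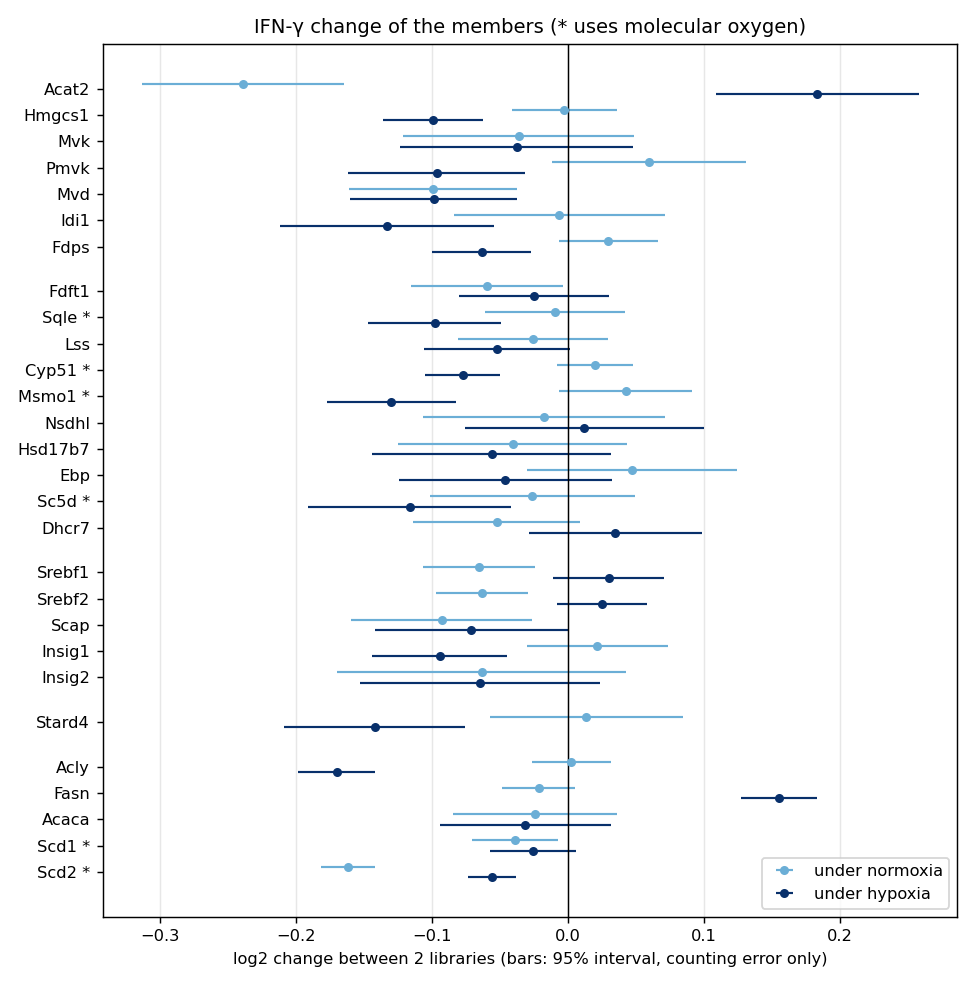
log2 change from control to IFN-γ of 28 members, in normoxia (light) and in hypoxia (dark), grouped by role as before; points are ratios of 2 libraries, bars are 95% intervals from counting error alone, and an asterisk marks an enzyme that uses oxygen. Most points lie just below 0, with a median over all 30 members of -0.02 in normoxia and -0.06 in hypoxia, and Acat2 runs from -0.24 to 0.18.

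The change with hypoxia was next compared between the IFN-γ states, as the value with IFN-γ minus the value without. Of the 28 members that reached 100 counts in each library the difference lay outside its counting interval for 15, which is 53.6% against 34.5% of the 10443 genes at that depth. Of these 15, 10 had the smaller value with IFN-γ (among them Acly, Msmo1, Pmvk, Stard4 and Insig1) and 5 the larger (Acat2, Fasn, Scd2, Srebf1 and Srebf2). The most negative were Acly and Msmo1 at -0.17 each, then Pmvk and Stard4 at -0.16. The most positive were Acat2 at 0.42 and Fasn at 0.18. The central 95% of the 10443 genes ran from -0.36 to 0.40, and of the 28 members Acat2 lay outside it. For Insig2 and Scap the difference was 0.00 and 0.02. Without replicates these differences could not be tested, and the narrow counting intervals of highly counted genes make them easier to exceed.

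A wider list of 39 genes of sterol and fatty acid metabolism was read in the same fit, of which 36 were tested. Ch25h and Cyp7b1, which make and clear oxysterols, had 0 counts in all 4 libraries, and Abcg1 was below the filter. Hypoxia raised 6 of the 36 (16.7%, against 8.21% of all genes tested) and lowered 2 (5.56%, against 6.83%), with a median of 0.01. Me1, the malic enzyme that supplies NADPH, had 6247, 8936, 5410 and 9128 counts and rose by 0.64 ± 0.06 (SE, adjusted p = 1.02e-27). Lpin1, a phosphatidate phosphatase, rose by 0.54. The others were Soat1, which esterifies cholesterol (0.39), Acss2, which makes acetyl-CoA from acetate (0.36), Nr1h2, the liver X receptor β (0.26, adjusted p = 0.00183), and Acsl4, an acyl-CoA synthetase (0.15, adjusted p = 0.0424). Erlin1, linked to sterol-dependent protein degradation, fell by 0.25 on the log2 scale (adjusted p = 0.00202). Of the 6 alternative fits, Me1 was called in 6, Lpin1, Soat1 and Acss2 in 5, Nr1h2 and Erlin1 in 4 and Acsl4 in 2. With oxygen as the only term the adjusted p was 0.0534 for Lpin1, 0.230 for Soat1, 0.0890 for Acss2, 0.505 for Nr1h2, 0.203 for Erlin1 and 0.402 for Acsl4. The other oxygen-using desaturases Fads1 and Fads2 had estimates of 0.01 and 0.08 and were not called.

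IFN-γ raised 3 of the 36 (8.33%, against 4.76% of all genes tested) and lowered 1 (2.78%, against 1.1%), with a median of -0.03. Nr1h2 had 2068, 2502, 2686 and 3163 counts and rose by 0.37 ± 0.07 (SE, adjusted p = 1.10e-06). Soat1 had 4108, 5157, 4734 and 6486 counts and rose by 0.28 ± 0.06 (SE, adjusted p = 5.29e-05). Both were highest in the library with IFN-γ and hypoxia. Npc2, a lysosomal sterol carrier, rose by 0.18 (adjusted p = 0.0347), a call that held in 2 of the 6 alternative fits (adjusted p up to 0.896). Fads3, a member of the desaturase family, fell by 0.19 (adjusted p = 0.0378), a call that held in 1 of the 6 (up to 0.985). The calls for Nr1h2 and Soat1 held in 5 of the 6, with adjusted p-values of 0.511 and 0.999 where IFN-γ was the only term.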

How the data were processed

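Poly-A RNA of 4 MC38 cultures was sequenced as strand-specific paired-end libraries on a DNBSEQ instrument. Reads were aligned with HISAT2, and the submitters' processing notes also name featureCounts and mm10. Counting settings, strand use among them, were not given in the sources used here. The authors deposited whole-number counts per gene without normalization, keyed by NCBI gene ID, and 25275 of the 27179 IDs matched a symbol in the RefSeq table of GRCm38.p6. Exon lengths and shared 31-base words came from GENCODE M21, and mm10 and GRCm38 are the same assembly.

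Counts were tested in R 4.3.3 with edgeR 4.0.16, using TMM normalization, filterByExpr at a minimum of 10 counts and an additive model of oxygen and IFN-γ, at an adjusted p of 0.05. The common dispersion was 0.00222, a coefficient of variation of 4.71%. Single-pair ratios had 0.5 counts added and exact Clopper-Pearson 95% intervals. These intervals cover counting error only, since no condition had a replicate culture. PCR reads are not independent molecules, so the intervals may be too narrow even for that error. DESeq2 1.42.0, other filters and scalings were alternatives. All 30 members are named, and of the wider list those called, at most 5 in each direction, beside Acsl4, Fads1, Fads2 and the genes that were not tested, which were named after their values were seen. A called gene of the wider list is not reported here by name. Members and lists were chosen with earlier results of these data known, and are no independent support.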

Additional observations from a re-analysis of the deposited data

Results flagged for a closer look

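In 3 members the changes in the 2 pairs of libraries had opposite signs and both counting intervals left out 0. The difference was not tested in any of them, since each condition had 1 library.

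The log2 change of Acat2 in hypoxia was -0.204 in control cells and 0.218 in IFN-γ treated cells. It likewise changed with IFN-γ by -0.239 in normoxia and by 0.184 in hypoxia, which are the same 4 counts read the other way. Part of its sequence is shared with Acat3, as given above.

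The hypoxia change of Acly was 0.137 in control cells and -0.0354 in treated cells, and that of Fdps was 0.0382 and -0.0547.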

How the results depend on the processing

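Alternatives changed the normalization, the filter on low counts, the test or the model, added 5 counts to the ratios or asked for a log2 change of at least 0.5, and the single pairs were read on their own. The summing of Acat2 with Acat3 was chosen after seeing the data. No paired analysis was possible because each group had 1 library, and leaving out a library would leave the additive model no residual degrees of freedom. Insig2 was called in every alternative fit, and it was the 1 member raised when oxygen was the only term and when a log2 change of 0.5 was asked for. In those 2 settings 0 oxygen-requiring members and 1 of the other 24 were raised, and of the wider list 1 and 2 were raised by hypoxia and 0 by IFN-γ. The model with oxygen as its only term called 150 genes raised (1.1%), since it counts the IFN-γ response as spread, and DESeq2 called 362 (2.67%). The number of members lowered by hypoxia, all of them among the 24, was 0 with DESeq2's size factors, DESeq2's Wald test, no filter, the single term and the size rule. Wider-list genes lowered by hypoxia were 1 with DESeq2's size factors, no filter and the filter of 10 counts in every library, and 0 with the Wald test, the single term and the size rule. Those lowered by IFN-γ were 0 in all 6 of these. Without IFN-γ the hypoxia median was 0.0148 for the other 24 members and 0.0332 for the wider list. With IFN-γ it was 0.00397 for all members. Over the 24 it was 0.0115 with no filter and 0.0137 with the stricter filter. The IFN-γ median was -0.0539 for the 24 in hypoxia and -0.00218 for the wider list in normoxia. Signs turned only for estimates near 0 that were never called. For hypoxia these were Acat2 (-0.00266 with no filter) and Mvd (-0.00598 with no filter, -0.000734 with total counts in place of TMM). For IFN-γ they were Nsdhl (0.0074 with no filter, 0.00431 with the stricter filter), Ebp (-0.0156 with total counts) and Dhcr7 (0.00115 with no filter). Apart from the changed fits' own construction, the cause was not tested. Depth limits Abca1 and Tm7sf2 alone among the members.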
